A study of Mus musculus with 8 samples.

Results

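Autophagy and lysosome genes were followed in mouse brain after 17 h without food. The set held 48 genes chosen by symbol from the array's annotation, of 15286 genes with a RefSeq name that entered the test. By role, 30 members build the autophagosome or load it, 16 belong to the lysosome, and 2 encode the transcription factors Tfeb and Tfe3. All 48 members were measured, on 73 probes, and each of these probes was well above background on all 8 arrays, so no member was lost to the filter on dim probes.

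Brain RNA came from fasted mice and from fed mice, with 4 single-colour arrays per group. The labels give the tissue as brain and give no strain, sex, age or brain region, and do not give the number of mice behind each array, so the p-values describe array-to-array spread that can include technical variation. Spot brightness at the 75th percentile was 1651 to 1944 intensity units over the 8 arrays, and no spot was saturated. Levels below are log2 signals minus that array's 75th percentile, and differences are fasted minus fed on the log2 scale. A gene took its brightest kept probe, and a call means an adjusted p under 0.05 in limma, with Benjamini-Hochberg adjustment over 26066 probes. Precision is set by the 4 arrays of each group. Fasted arrays sat at positions 1 and 3 of each of 2 slides and fed arrays at positions 2 and 4, so position and fasting cannot be told apart. The arrays measure a mixed tissue, in which fewer cells of a type and less RNA per cell cannot be told apart.

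Macroautophagy encloses cytoplasm in a double membrane, the autophagosome, which fuses with lysosomes whose acid hydrolases break the contents down. The ULK1 kinase complex and the class III PI3-kinase complexes start the membrane, ubiquitin-like conjugation attaches the ATG8 proteins (the LC3 and GABARAP families) to it, and receptors such as p62 bring in cargo. In liver and muscle, starvation is a classic trigger of the process, and much of its control lies in protein phosphorylation and lipidation, which RNA levels do not show. TFEB and TFE3 are basic helix-loop-helix factors that enter the nucleus when mTORC1 is inactive and bind E-box elements near many lysosomal genes.

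Of the members 7 were higher in fasted brain and none was called lower. Those that rose were Ctsa, Ctsl and Neu1 among the lysosomal enzymes, Atg13, Uvrag and Atg10 among the autophagosome genes, and the transcription factor Tfe3. Their differences ran from 0.15 for Atg13 to 0.26 for Ctsa, which is 1.11-fold to 1.20-fold. This main fit took no account of pairing by replicate number. With the replicate number as a block 4 members were called higher, Uvrag, Ctsa, Ctsl and Neu1, while Atg13, Atg10 and Tfe3 did not pass. The share of all genes called with that block is not given here, so these 4 are not read against a background. In the main fit the count of 7 of 48 is 14.6% of the members. Beside it stand 18.7% of all genes called in either direction in that fit, 9.55% higher and 9.11% lower in fasted brain. The share lay close to this background, below it for both directions and above it for rises alone. At an unadjusted p under 0.05 in the same fit, 10 members were higher and 3 were lower. Of all 15286 genes tested 2679 were higher and 2621 lower at that unadjusted threshold. The fasted and fed values did not overlap for 10 members, 9 above and 1 below, beside 27.3% of all genes.

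**Figure D1:**
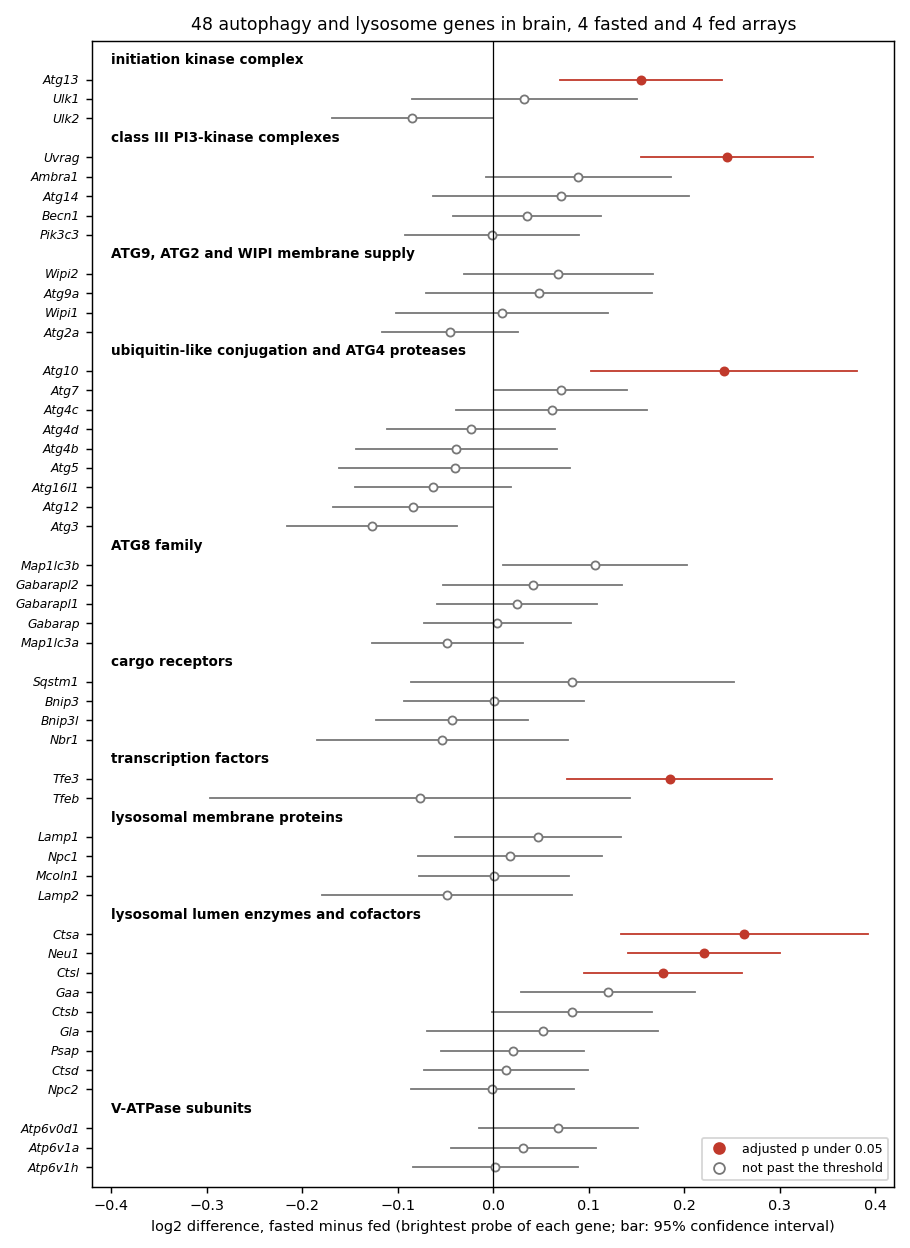
Log2 difference between fasted and fed brain for each of the 48 members, grouped by role, with the 95% confidence interval of the fit (4 fasted and 4 fed arrays). Filled red points mark the 7 members with an adjusted p under 0.05 in the fit without pairing, all to the right of 0. Open points mark the members that did not pass.

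Lysosomal and autophagosome members were set side by side. Of the 16 lysosome members 3 were called higher, and of the 30 autophagosome members 3 were called higher, with 0 lower in either class. At an unadjusted p under 0.05 the fit gave 4 higher and 0 lower lysosome members, and 5 higher and 3 lower autophagosome members. Beside these stand 2679 higher and 2621 lower of all 15286 genes. The median difference was 0.04 over the lysosome members and 0.02 over the autophagosome members, beside -0.01 over all genes. On the brightest probes 2 lysosome members had a difference below 0, Lamp2 and Npc2, against 12 of the 30 autophagosome members. Of all 15286 genes 7940 lay below 0. Over all member probes 4 of 23 lysosome probes and 20 of 47 autophagosome probes lay below 0, beside a median difference of -0.01 over all kept probes. These are descriptions of chosen lists, and the difference between the classes was not tested.

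On each array the deviation of every gene from its mean over the 8 arrays was taken, and the median over a class was read. For the lysosome members this median was 0.04, 0.03, 0.06 and -0.01 in fasted brain, against -0.03, -0.01, -0.01 and -0.06 in fed brain. The 3 highest values were all from fasted arrays, while fasted replicate 4 lay among the fed arrays, so the groups overlapped. For the autophagosome members it was -0.01, 0.02, 0.02 and -0.01 in fasted brain, against -0.02, 0.01, -0.02 and -0.02 in fed brain. Here fasted and fed arrays were interleaved.

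**Figure D2:**
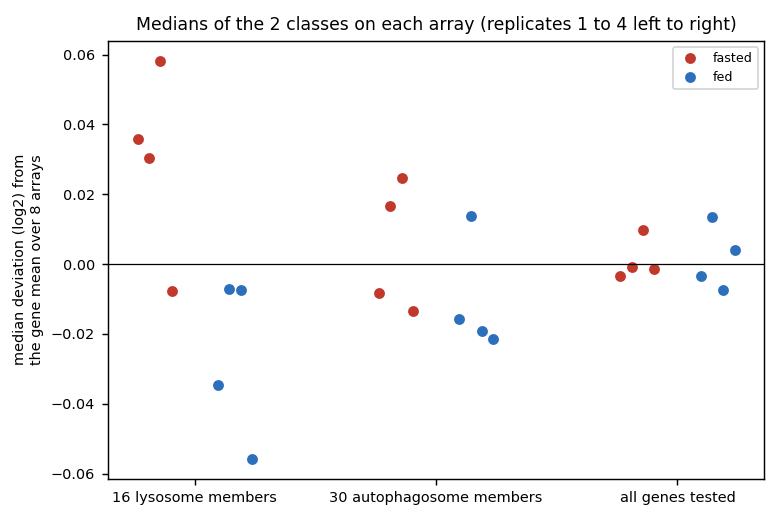
Median deviation on the log2 scale of the 16 lysosome members, the 30 autophagosome members and all genes tested, for each fasted (red) and fed (blue) array. For the lysosome members 3 fasted arrays lie above every fed array and fasted replicate 4, at -0.01, does not.

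Of 9 lysosomal lumen members 3 were called higher, or 33.3%, beside 9.55% of all genes. By share the role did not stand alone, with 1 of 3 initiation genes and 1 of 2 transcription factor genes called higher. Of 36 other lysosomal hydrolase and cofactor genes 8.33% were called higher. Ctsa encodes cathepsin A, the protective protein that binds neuraminidase 1 and beta-galactosidase in a complex and keeps them stable. Its level was 3.72, 3.80, 3.79 and 3.57 in fasted brain, against 3.46, 3.51, 3.40 and 3.48 in fed brain. Every fasted array was above every fed array. Ctsa rose by 0.26 (95% confidence interval 0.13 to 0.39, 1.20-fold, adjusted p = 0.0182), with means of 3.72 ± 0.11 in fasted brain and 3.46 ± 0.05 in fed brain (SD, n = 4 each). Its probe lies at chr2:164665023-164665082 (mm9, plus strand). A dimmer Ctsa probe 1410 bases downstream, at chr2:164666433-164666492, gave 0.28 with an adjusted p of 0.0195 (0.0576 with the replicate block), so both probes passed without the block.

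Neu1 encodes the sialidase of that complex, which removes sialic acids from glycoproteins and glycolipids. Its level was 2.65, 2.53, 2.58 and 2.60 in fasted brain, against 2.34, 2.38, 2.38 and 2.37 in fed brain. The groups were apart by more than the range within either of them. Neu1 rose by 0.22 (95% confidence interval 0.14 to 0.30, 1.17-fold, adjusted p = 0.00635), from a probe at chr17:35072105-35072164 (plus strand). Glb1, the beta-galactosidase of the complex and no member of the set, did not pass, at -0.04 (95% confidence interval -0.14 to 0.06, adjusted p = 0.548).

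Ctsl encodes cathepsin L, a cysteine endopeptidase of the lysosome. It measured 2.95, 2.90, 2.94 and 2.92 in fasted brain, against 2.76, 2.75, 2.81 and 2.68 in fed brain. No fed array reached the lowest fasted one. Ctsl rose by 0.18 (95% confidence interval 0.09 to 0.26, 1.13-fold, adjusted p = 0.0151), from a probe at chr13:64465287-64465346 (minus strand).

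The other 6 lumen proteins did not pass. Gaa, the acid alpha-glucosidase that degrades glycogen in lysosomes, measured 5.09, 5.10, 5.06 and 5.04 in fasted brain, against 4.94, 5.03, 4.96 and 4.87 in fed brain. Its values did not overlap, and its difference of 0.12 had an adjusted p of 0.0743. Ctsb, encoding cathepsin B, gave 0.08 with an adjusted p of 0.160. Ctsd, encoding the aspartic protease cathepsin D, gave 0.01 on its brightest probe (95% confidence interval -0.07 to 0.10, adjusted p = 0.837). Gla, Psap and Npc2, which encode alpha-galactosidase A, the saposin precursor and a cholesterol carrier, gave 0.05, 0.02 and -0.00.

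**Figure D3:**
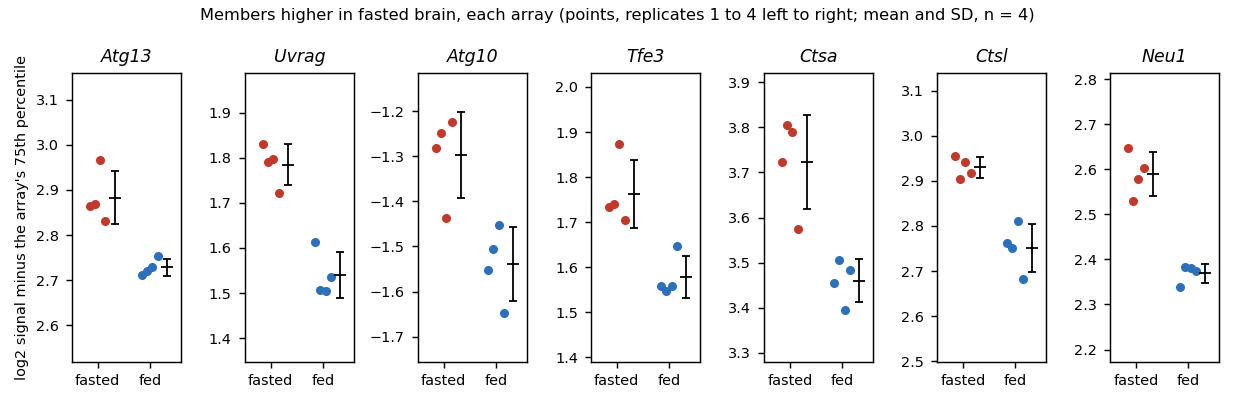
Level of the 7 members called higher in the fit without pairing, in each fasted (red) and fed (blue) array. Values are log2 signal minus the array's 75th percentile, with the mean and SD (n = 4 each) beside the points. Each panel spans the same log2 range, and in every panel all fasted points lie above all fed points.

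Lysosomal membrane proteins and the proton pump did not pass. Lamp1, the most used marker of lysosomal membrane, measured 4.97, 5.01, 5.09 and 4.95 in fasted brain, against 4.97, 4.95, 4.98 and 4.94 in fed brain, and the groups overlapped. Its difference was 0.05 (95% confidence interval -0.04 to 0.13, adjusted p = 0.427). Lamp2, whose splice forms include the receptor of chaperone-mediated autophagy, gave -0.05 with an adjusted p of 0.596. Npc1, a cholesterol exporter, and Mcoln1, the calcium channel mucolipin 1, gave 0.02 and 0.00. On the brightest probes the intervals of these 4 genes together reached from -0.18 to 0.13. A dimmer Mcoln1 probe gave -0.23 (adjusted p = 0.105), the lowest difference of any member probe. Of the V-ATPase subunits, which acidify the lysosome, Atp6v0d1 gave 0.07 (adjusted p = 0.234), Atp6v1a 0.03 (adjusted p = 0.553) and Atp6v1h 0.00.

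Initiation genes gave 1 call of 3. Atg13 encodes the scaffold that links the ULK kinases to their complex. It measured 2.86, 2.87, 2.97 and 2.83 in fasted brain, against 2.71, 2.72, 2.73 and 2.75 in fed brain. The lowest fasted array lay above the highest fed array. Atg13 rose by 0.15 (95% confidence interval 0.07 to 0.24, 1.11-fold, adjusted p = 0.0266), from a probe at chr2:91514791-91514850 (minus strand). With the replicate number as a block its adjusted p was 0.0577, and its call was lost without fasted replicate 1 or 2 or fed replicate 1, 2 or 3, at 0.0568 to 0.0671. The kinase genes Ulk1 and Ulk2 gave 0.03 and -0.08, the second with an adjusted p of 0.150.

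Class III PI3-kinase genes gave 1 call of 5. Uvrag encodes a Beclin 1 partner that takes the place of ATG14 in the complex acting on endosomes and on autophagosome maturation. It measured 1.83, 1.79, 1.80 and 1.72 in fasted brain, against 1.61, 1.51, 1.50 and 1.54 in fed brain. The groups did not overlap. Uvrag rose by 0.24 (95% confidence interval 0.15 to 0.33, 1.18-fold, adjusted p = 0.00674), with means of 1.78 ± 0.05 in fasted brain and 1.54 ± 0.05 in fed brain (SD, n = 4 each), from a probe at chr7:106035448-106035507 (minus strand). Ambra1, a Beclin 1 regulator, gave 0.09 (adjusted p = 0.182) and Atg14 gave 0.07 (adjusted p = 0.436). Becn1, encoding Beclin 1, and Pik3c3, encoding the lipid kinase itself, gave 0.04 and -0.00, with intervals of -0.04 to 0.11 for Becn1 and -0.09 to 0.09 for Pik3c3.

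The 4 genes of the lipid supply to the growing membrane did not pass. Their differences ran from -0.04 for the lipid transfer protein gene Atg2a (adjusted p = 0.353) to 0.07 for the phosphoinositide reader gene Wipi2 (adjusted p = 0.313), with Atg9a and Wipi1 between them.

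Conjugation enzymes and ATG4 proteases gave 1 call of 9, and 6 of the 9 differences were below 0. Atg10 encodes the E2-like enzyme that joins ATG12 to ATG5. It measured -1.28, -1.25, -1.44 and -1.22 in fasted brain, against -1.55, -1.51, -1.45 and -1.65 in fed brain. Fasted replicate 3 lay just above the highest fed array. Atg10 rose by 0.24 (95% confidence interval 0.10 to 0.38, 1.18-fold, adjusted p = 0.0318), from a probe at chr13:91075030-91075089 (minus strand). With the replicate block its adjusted p was 0.0812, and its call was lost without fasted replicate 1, 2 or 4 or fed replicate 1, 2 or 4, at 0.0618 to 0.0795.

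Atg3, the E2-like enzyme that joins the ATG8 proteins to lipid, lay on the other side. It measured 0.72, 0.64, 0.66 and 0.74 in fasted brain, against 0.79, 0.80, 0.88 and 0.79 in fed brain. On the brightest probes it was the 1 member with all fasted values below all fed values. Its difference of -0.13 (95% confidence interval -0.22 to -0.04) had an adjusted p of 0.0588 and did not pass, while 3 of the alternatives put it past the threshold, at 0.0356 with an intensity trend in the variance, 0.0400 with quantile normalization and 0.04996 over probes well above background on all arrays. Atg12, the ubiquitin-like protein joined to ATG5, gave -0.08 (adjusted p = 0.149) and Atg7, the shared E1-like enzyme, gave 0.07 (adjusted p = 0.144). The Atg7 probes disagreed. All fasted values lay above all fed values on the brightest probe and below them on a dimmer one, at -0.11 (adjusted p = 0.139). Atg5, Atg16l1, Atg4b, Atg4c and Atg4d lay between -0.06 and 0.06.

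None of the 5 ATG8 family genes passed, and 1 of them was higher at an unadjusted p under 0.05. Map1lc3b, encoding the LC3B protein that is the standard marker of autophagosomes, measured 4.02, 3.99, 4.07 and 3.91 in fasted brain, against 3.85, 3.95, 3.89 and 3.87 in fed brain. Fasted replicate 4 lay below fed replicate 2, so the groups overlapped. Its difference was 0.11 (95% confidence interval 0.01 to 0.20, adjusted p = 0.121). The Map1lc3b probe is printed as 10 spots, whose SD within an array was 0.03 to 0.06 on the log2 scale.

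Map1lc3a gave -0.05 (adjusted p = 0.369), Gabarap 0.00 (adjusted p = 0.946), Gabarapl1 0.02 (adjusted p = 0.679) and Gabarapl2 0.04 (adjusted p = 0.525). The 95% confidence intervals of the 5 genes reached from -0.13 to 0.20. Gabarapl1, known for its abundance in the nervous system, measured 6.57, 6.67, 6.63 and 6.59 in fasted brain, against 6.57, 6.62, 6.63 and 6.55 in fed brain, with full overlap.

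The 4 cargo receptor genes did not pass. Sqstm1, encoding p62, the receptor for ubiquitinated cargo, measured 1.46, 1.49, 1.34 and 1.31 in fasted brain, against 1.40, 1.46, 1.21 and 1.19 in fed brain. Arrays of replicates 1 and 2 were high and those of replicates 3 and 4 low in both groups. Sqstm1 gave 0.08 (95% confidence interval -0.09 to 0.25, adjusted p = 0.475, or 0.157 with the replicate block). The mitophagy receptor genes Bnip3 and Bnip3l gave 0.00 and -0.04, and Nbr1, a p62 relative, gave -0.05.

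Of the transcription factor genes, Tfe3 was higher and Tfeb was not. Tfe3 measured 1.73, 1.74, 1.87 and 1.70 in fasted brain, against 1.56, 1.55, 1.56 and 1.65 in fed brain. The groups did not overlap. Tfe3 rose by 0.18 (95% confidence interval 0.08 to 0.29, 1.14-fold, adjusted p = 0.0321), from a probe at chrX:7352268-7352327 (plus strand). With the replicate block its adjusted p was 0.0688, and its call was lost without fasted replicate 1 or 2 or fed replicate 1, 2 or 3, at 0.0623 to 0.0804. Tfeb, on a dim probe, measured -3.48, -3.31, -3.41 and -3.44 in fasted brain, against -3.16, -3.59, -3.19 and -3.40 in fed brain. Its difference of -0.08 had the widest interval of any member's brightest probe, -0.30 to 0.14 (adjusted p = 0.622), and the 2 differences were not tested against each other.

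Several genes gave different answers on different probes. Of the 48 members 19 had more than 1 kept probe, which makes 25 pairs of the brightest probe with another one. In 6 pairs 1 probe passed and the other did not, in 6 genes, and in 11 pairs the signs were opposite. Over all 73 member probes 12 were called higher and 0 lower, beside 8.4% of all probes called higher and 8.55% called lower. Of the 12, 7 were among the 23 lysosome probes and 4 among the 47 autophagosome probes.

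Ctsd, Gaa and Atp6v1a passed on a dimmer probe and not on the brightest one. A Ctsd probe that spans 1659 bases of genome at chr7:149566847-149568505 (mm9, minus strand), and so crosses at least 1 intron, measured 0.29, 0.36, 0.37 and 0.27 in fasted brain, against 0.15, 0.18, 0.09 and 0.07 in fed brain. All fasted arrays lay above all fed arrays, and this probe rose by 0.20 (95% confidence interval 0.11 to 0.29, adjusted p = 0.0136, or 0.0297 with the replicate block), while the brightest probe gave 0.01. The sequence of the probe is shown because the call on Ctsd turns on it.
Ctsd junction probe: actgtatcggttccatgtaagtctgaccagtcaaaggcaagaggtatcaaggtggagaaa

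An Atp6v1a probe 243 bases from the brightest one measured 2.70, 2.76, 2.83 and 2.78 in fasted brain, against 2.49, 2.54, 2.59 and 2.61 in fed brain. It rose by 0.21 (adjusted p = 0.0151), against 0.03 for the brightest. A Gaa probe 10683 bases upstream of the brightest rose by 0.24 (adjusted p = 0.0425, or 0.0646 with the replicate block), and the remaining Gaa probe gave -0.03. For Wipi2 the dimmer probe rose by 0.16 (adjusted p = 0.0313, or 0.0665 with the replicate block), and for Atg10 and Tfe3 the dimmer probes gave 0.04 and 0.03 and did not pass. Lamp2 is read by a probe on each of 2 transcript accessions, at -0.05 and 0.17 (adjusted p = 0.143). Sqstm1, Gabarap and Bnip3l also had dimmer probes of the opposite sign to the brightest. Those probes gave -0.15 for Sqstm1, -0.02 and -0.01 for Gabarap, and 0.02 and 0.05 for Bnip3l, and none passed. Which exon or untranslated region lies under a probe was not analysed here, so splice forms and probe quality cannot be told apart.

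**Figure D4:**
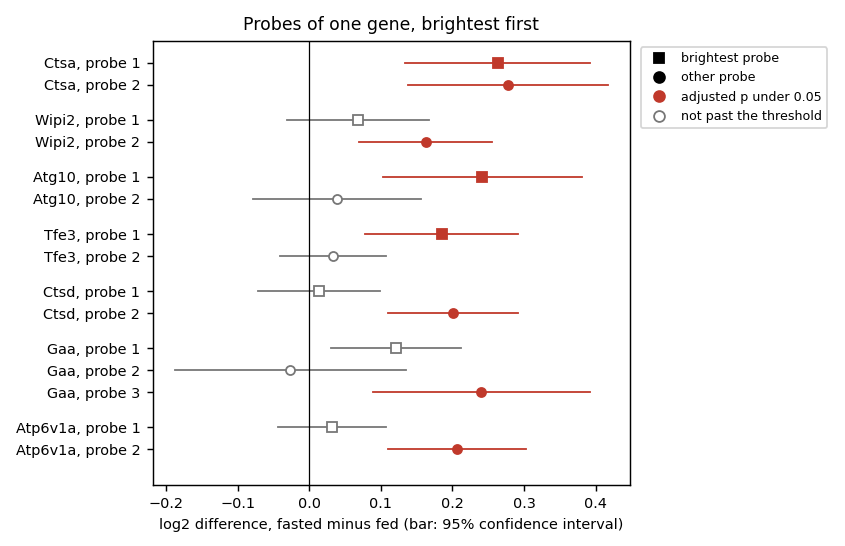
Log2 difference between fasted and fed brain with its 95% confidence interval for each probe of Ctsa and of the 6 members whose probes differ in call, squares marking the brightest probe. Both Ctsa probes passed, at 0.26 and 0.28, while Ctsd, Gaa, Atp6v1a and Wipi2 passed on a dimmer probe and Atg10 and Tfe3 on the brightest.

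Promoter sequence was read for the members in the RefSeq table of GRCm38.p6, 250 bases before to 50 bases after each gene start. The letters searched were CACGTG, the E-box core that TFEB and TFE3 bind, which reads the same on both strands, and TCACGTGA, the longer palindrome that contains it. Of the 48 members 39 had a promoter there, and Becn1, Pik3c3, Atg12, Atg16l1, Map1lc3a, Bnip3l, Npc1, Ctsb and Atp6v1h had none. CACGTG stood in 9 of 13 lysosome members (69.2%) and 5 of 24 autophagosome members (20.8%), beside 10.9% of the genes tested and 7.15% of all promoters. The lysosome members with it were Lamp1, Mcoln1, Ctsa, Ctsd, Ctsl, Gaa, Gla, Atp6v0d1 and Atp6v1a. TCACGTGA stood in 6 of 13 and 1 of 24, beside 1.87% of the genes tested. Neither Tfe3 nor Tfeb held either motif. In the wider list of lysosomal genes 14 of 55 promoters held CACGTG (25.5%).

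The promoters below are those of the 3 lysosomal genes that rose, with Lamp1 for its 4 copies and Ctsd for its disagreeing probes, and capitals mark CACGTG.
Ctsa, chr2:164833523-164833822 (plus strand): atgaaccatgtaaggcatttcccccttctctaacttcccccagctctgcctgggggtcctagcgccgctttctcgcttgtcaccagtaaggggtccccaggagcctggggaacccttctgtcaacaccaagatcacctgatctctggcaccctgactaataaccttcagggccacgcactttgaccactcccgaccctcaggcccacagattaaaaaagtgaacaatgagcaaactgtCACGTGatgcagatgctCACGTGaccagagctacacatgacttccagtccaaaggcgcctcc
Ctsl, chr13:64370471-64370770 (minus strand): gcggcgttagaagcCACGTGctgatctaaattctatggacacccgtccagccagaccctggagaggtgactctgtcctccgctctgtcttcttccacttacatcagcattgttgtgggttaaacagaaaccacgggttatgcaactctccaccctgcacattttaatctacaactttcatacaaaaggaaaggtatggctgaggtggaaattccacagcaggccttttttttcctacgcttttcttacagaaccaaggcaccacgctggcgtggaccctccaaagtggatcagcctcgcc
Neu1, chr17:34931003-34931302 (plus strand): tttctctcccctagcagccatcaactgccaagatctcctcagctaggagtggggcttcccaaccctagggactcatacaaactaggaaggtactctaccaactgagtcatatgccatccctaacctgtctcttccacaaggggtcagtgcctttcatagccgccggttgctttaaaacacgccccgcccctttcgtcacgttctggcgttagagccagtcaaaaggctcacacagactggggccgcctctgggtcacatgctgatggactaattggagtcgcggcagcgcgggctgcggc
Lamp1, chr8:13158911-13159210 (plus strand): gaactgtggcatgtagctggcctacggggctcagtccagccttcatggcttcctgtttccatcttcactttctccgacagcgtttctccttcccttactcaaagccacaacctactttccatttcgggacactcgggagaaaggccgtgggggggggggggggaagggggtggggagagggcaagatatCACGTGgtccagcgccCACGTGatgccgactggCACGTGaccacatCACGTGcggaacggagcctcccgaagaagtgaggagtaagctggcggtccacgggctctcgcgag
Ctsd, chr7:142387778-142388077 (minus strand): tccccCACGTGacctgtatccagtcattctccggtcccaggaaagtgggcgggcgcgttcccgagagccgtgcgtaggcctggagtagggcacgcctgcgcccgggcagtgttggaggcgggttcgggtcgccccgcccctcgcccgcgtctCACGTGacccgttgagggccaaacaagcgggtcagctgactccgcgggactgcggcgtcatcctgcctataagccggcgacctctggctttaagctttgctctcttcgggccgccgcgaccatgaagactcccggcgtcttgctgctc

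Ctsa has 2 promoters in RefSeq, and only the promoter that holds CACGTG is printed. The Ctsa copies begin at bases 239 and 256 of the 300 printed, on either side of the gene start, and the Lamp1 copies at bases 190, 206, 223 and 236. Ctsl holds 1 copy far upstream, at base 15, and the Neu1 window holds none. Calls fell on both sides of the motif: of the 9 lysosome members with CACGTG 2 rose, Ctsa and Ctsl, and of the 4 without it 1 rose, Neu1. Among all tested genes 10.2% of those with CACGTG and 9.48% of those without it were called higher in fasted brain. For TCACGTGA 1 of 6 lysosome members with it and 2 of 7 without it rose. Among all tested genes 12.3% of the 227 with TCACGTGA were called higher and 8.37% lower. Of those without it 9.51% were called higher and 9.12% lower, and these shares were not compared by a test. A match is a description of letters in this window and not a binding site or a cause, and a window without a match says nothing of the factor.

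**Figure D5:**
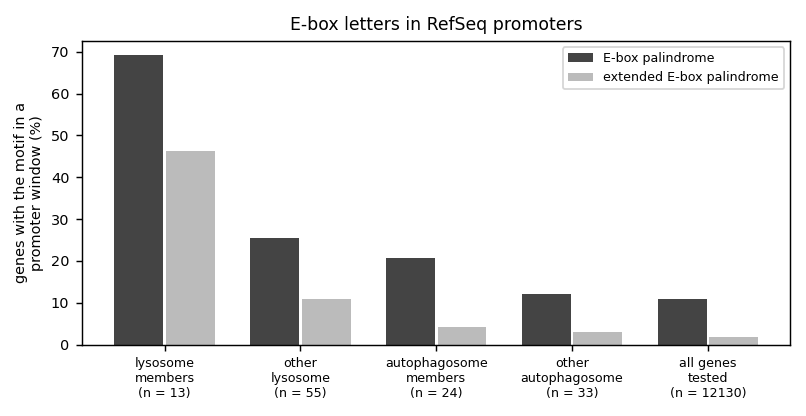
Share of genes whose RefSeq promoter holds the E-box core palindrome (dark bars) or its longer form (light bars), for lysosome and autophagosome members, the wider lists of other genes and all genes tested. The lysosome members stand at 69.2% for the core and 46.2% for the longer form, beside 10.9% and 1.87% of all genes tested.

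Other genes of the pathway were read from wider lists. Of 36 other autophagosome genes measured 3 were called higher and 1 lower, and of 72 other lysosomal genes 5 were called higher and 4 lower, beside the 18.7% of all genes called. In the autophagy machinery Atg2b, a relative of the lipid transfer protein ATG2A, rose by 0.17 (adjusted p = 0.0169) and Rab7, the late endosome GTPase, rose by 0.19 (adjusted p = 0.0377), the only 2 calls of 22. Of 14 selective autophagy receptors and adaptors Calcoco1 rose by 0.13 (adjusted p = 0.0372, or 0.0850 with the replicate block) and Ccpg1, an endoplasmic reticulum receptor, fell by 0.16 (adjusted p = 0.0369). None of 15 other V-ATPase genes passed in limma. At an unadjusted p under 0.05 in that fit 4 of them were higher, beside 2679 of all 15286 genes.

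Of 36 other lysosomal hydrolase and cofactor genes 3 were called higher and 3 lower. This is 16.7% called, beside 18.7% of all genes, and 8.33% called higher, beside 9.55% of all genes. Naglu, a heparan sulfate glucosaminidase, measured -0.96, -0.97, -0.91 and -0.94 in fasted brain, against -1.28, -1.10, -1.25 and -1.24 in fed brain, and rose by 0.27 (adjusted p = 0.00664). Hexa, the alpha subunit of beta-hexosaminidase A, measured 1.19, 1.20, 1.22 and 1.18 in fasted brain, against 1.47, 1.45, 1.49 and 1.43 in fed brain, and fell by 0.26 (adjusted p = 0.00190). Both genes were fully separate between the groups, in opposite directions. Fuca1 and Gusb, a fucosidase and a glucuronidase, rose by 0.16 and 0.16 (adjusted p = 0.0384 and 0.0459, or 0.0920 and 0.0759 with the replicate block).

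The peptidase genes Ctsh and Dpp7 fell by 0.23 and 0.17 (adjusted p = 0.0259 and 0.0196, the second 0.0506 with the replicate block). Of 21 membrane and sorting genes the sorting receptor gene Sort1 rose by 0.20 (adjusted p = 0.0147) and the lipid transporter gene Abca2 rose by 0.14 (adjusted p = 0.0342), while Cln3 fell by 0.15 (adjusted p = 0.0367, or 0.0787 with the replicate block). Of these 13 calls in the wider lists 4 (Atg2b, Naglu, Hexa and Sort1) were kept in each fit that left out 1 array, but Sort1 lost its call with the mean of its probes, at 0.04 (adjusted p = 0.379). The other 9 were lost in at least 1, at an adjusted p of up to 0.107, and each of the 8 arrays ended at least 1 of them when left out.

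Markers of brain cell types moved as well. Every marker of neurons, astrocytes and microglia was well above background on all 8 arrays. Of 15 microglial markers, from cells rich in lysosomal RNA, 6 fell and 0 rose: Tmem119, P2ry12, Aif1, Csf1r, Trem2 and Fcrls, by 0.17 to 0.65. All 15 had a difference below 0, at a median of -0.14. The summed linear level of the 15, in units of the array's 75th percentile, was 79.8 to 102 in fasted brain and 92.1 to 104 in fed brain. Such a sum gives most weight to the brightest markers, here Itgam and Siglech, which did not pass. Of 11 oligodendrocyte markers 5 fell and 0 rose, with summed levels of 113 to 129 in fasted brain and 125 to 139 in fed brain. Of 10 astrocyte markers 2 rose and 1 fell, with summed levels of 175 to 187 in fasted brain and 157 to 176 in fed brain, and of 11 neuronal markers 0 passed in limma, with 2 higher at an unadjusted p under 0.05 and summed levels of 231 to 243 in fasted brain and 221 to 233 in fed brain. Of 8 endothelial markers 2 rose and 2 fell, with summed levels of 17.6 to 20.4 in fasted brain and 17.3 to 19.2 in fed brain. Of 8 choroid plexus and ependyma markers 1 rose and 1 fell, at 37.2 to 41.1 in fasted brain and 38.2 to 42.8 in fed brain. Beside these counts stand 9.55% of all genes called higher and 9.11% called lower. Summed ranges overlapped between fasted and fed arrays in each of these sets but were not compared by a test. The part of these sets in the values of the lysosomal genes was not tested.

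Within each slide the 7 called members differed in the same direction. This was fixed in advance, because in each of them every fasted value lay above every fed value over both slides. The same arrays served to choose the 7, so a slide alone is no independent repeat. The differences of the 7 ran from 0.15 to 0.28 on slide 1 and from 0.16 to 0.24 on slide 2. With 2 arrays per group on a slide none passed the adjusted threshold in limma on either slide, and at an unadjusted p under 0.05 all 7 were higher on slide 1 and 2 of them on slide 2.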

How the data were processed

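The sample titles gave the group and replicate number of each array. Per the labels, total RNA (0.1 ug) had been copied to Cy3-labelled cRNA. The deposited scanner files hold each spot's intensity, background-subtracted and detrended by Feature Extraction 11.0.1.1, per the file headers, while the submitters' processing notes name version 10.10.1.1. A ratio on the linear scale is given per spot in the authors' deposited table of the series, equal to the signal over the array's 75th percentile times a constant per probe to within 0.000168 (SD, log2), with its direction known and the constant's origin unknown. It served as an alternative only.

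Control spots and outlier-flagged spots (128 to 217 per array) were left out, spots of a probe were averaged, and each array's 75th percentile was subtracted on the log2 scale. Probes well above background on at least 4 of 8 arrays were kept, 26066 of 39429. The comparison used lmFit and eBayes of limma 3.58.1, run in R 4.3.3 and read as two-sided, and the procedure was tested on simulated data. RefSeq (GRCm38.p6) gave names, for 27427 probes, and promoters. Probe coordinates are mm9, from the array design, and the builds were not mixed.

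Named genes were the called members, the 2 members of each role with the smallest p, all ATG8 genes, Tfeb, Tfe3, Lamp1, Ctsd and Sqstm1, their disagreeing probes, and up to 4 called genes of each wider list in each direction. The remaining members are given so that all 48 are accounted for, and Glb1 was named after its values were seen. The members and lists were chosen with earlier results of these data known.

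Same-numbered fasted and fed arrays deviated together from their group means, at correlations of 0.18, 0.28, 0.29 and 0.18, so the numbers count as pairs. Such arrays are neighbours on 1 slide, and pairing cannot be told apart from that. The main fit left the pairs out, and the replicate block took them in. Slide was tested as a batch, and 178 genes passed for a difference between slides. Alternatives varied the background correction, scaling, filter, flags, probe rule, variance model, slide, block, source table and each array in turn.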

Additional observations from a re-analysis of the deposited data

Results flagged for a closer look

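Single arrays stood apart from the other 3 of their group in 9 of 126 groups of 4 values, 7.14% of them, where chance gives about 1 in 20, and the values are small. Levels are log2 signals minus the array's 75th percentile. Atg3 was 0.88 in fed replicate 3, where the other fed arrays averaged 0.79. Atg16l1 was -0.22 in fed replicate 4, against -0.31. Atg4d was 1.81 in fed replicate 2, against 1.85. Tfe3 was 1.65 in fed replicate 4, against 1.55, on the side of the fasted arrays.

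In fasted replicate 3, Bnip3l was 2.92, where the other fasted arrays averaged 2.82, and Mcoln1 was 2.83, against 2.76. Gla was 6.58 in fasted replicate 2, against 6.42 in the others. Rab7 was 0.43 in fasted replicate 4, against 0.55, on the side of the fed arrays. The median deviation of the autophagosome members was 0.0139 in fed replicate 2, against -0.0189 in the other fed arrays.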

How the results depend on the processing

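Across 21 alternatives the direction of the 7 called members never turned. With single slides or left-out arrays it could not turn, as their fasted and fed values did not overlap. In the 19 alternatives that kept both slides Uvrag, Ctsa and Neu1 passed each time. Ctsl passed in all of these but the normexp background correction (adjusted p = 0.0798). The members called higher numbered 4 with no filter on dim probes, 4 with normexp and 4 with the replicate block, which kept Uvrag, Ctsa, Ctsl and Neu1. They numbered 4 to 7 with 1 array left out, against 7, and were 4 without fasted replicate 1 or 2 or without fed replicate 1 or 2. The share of all genes called higher under each alternative is not given here, so these counts are not read against a background. The members called lower numbered 1, Atg3, with an intensity trend, quantile normalization or probes well above background on all arrays, and 0 with any 1 array left out. Single slides called 0 members and 0 genes on slide 1 and 0 on slide 2 in limma, with 7 and 2 members and 3556 and 2371 genes at an unadjusted p under 0.05.

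All genes called numbered 2853, against 1666 with no filter, 1848 with normexp and 1798 to 2452 with 1 array left out, the lowest without fasted replicate 1 and next 1887 without fasted replicate 2. The median autophagosome difference of 0.0169 became 0.0359 with median scaling, 0.0346 with normexp, -0.00287 on slide 1 alone and 0.00557 to 0.0285 with 1 array left out. The lysosome median of 0.0392 became 0.0653 with the mean of a gene's probes and 0.0248 to 0.0464 with 1 array left out. The probe mean also ended the calls of Atg10 (adjusted p = 0.104) and Tfe3 (0.0799) and gave one to Atp6v1a (0.0298). The fits on the authors' table, with flagged spots kept or with slide as a block called the same 7 members. Of 798 values of 38 named genes under the alternatives, 149 lost the threshold, 4 gained it and 0 called values turned direction. The causes were not tested. Other than where given, the replicate block changed no call of a member. Signal over background did not limit the members, and the 4 arrays per group limit what such small differences can show.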
